A study of Mus musculus with 4 samples.

Results

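The cytosolic HSP70, HSP110 and HSP90 genes were examined in costal chondrocytes of mice with a mutation in *Matn3*, with a cartilage deletion of *Xbp1*, or with both. The group was defined by name as *Hspa8*, *Hspa1a*, *Hspa1b*, *Hspa1l*, *Hspa2*, *Hspa4*, *Hspa4l*, *Hsph1*, *Hsp90aa1* and *Hsp90ab1*, and every probe set that the probe annotation assigned to one of these 10 genes was taken. Probe sets were found for 9 of the 10 genes, 26 in all, of 18193 genes and 45037 probe sets on the array. No probe set carried the symbol *Hsp90ab1*, so the second cytosolic HSP90 is not analysed here. The members were chosen by name, with earlier results of these data known, so the counts below describe these genes and are not independent support.

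Chondrocytes were released with collagenase from ribs of C57BL6/J mice at postnatal day 5, and 1 array was hybridised per genotype with RNA pooled from 3 extractions. The wild type pool carried intact *Xbp1* and intact *Matn3*. In the XBP1 null pool, exon 2 of *Xbp1* had been deleted by a Cre recombinase under the *Col2a1* promoter, which is active in cartilage, and *Matn3* was intact. The Matn3 mutant pool carried the V194D change in matrilin-3, which models multiple epiphyseal dysplasia, on intact *Xbp1*. The double mutant pool carried both. Litters were pooled, so no array stands for 1 animal. No genotype was replicated, so the differences below have no replicate check and are given as levels on all 4 arrays and as folds between 2 arrays, with no test unless one is named. Where a fold is given for a signal below 1, that signal was raised to a floor of 1.

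Cytosolic HSP70 proteins bind exposed hydrophobic stretches of unfolded clients and release them in an ATP-driven cycle. J-domain proteins start this cycle, and the HSP110 proteins, distant relatives of HSP70, end it by exchanging the nucleotide. HSP90 takes over many of these clients, in particular kinases and steroid receptors, at a late step of folding. Transcription of the inducible members is driven in stressed cells by heat shock factor 1, which binds repeats of the heat shock element. The endoplasmic reticulum (ER), where mutant matrilin-3 is retained in this disease model, holds its own HSP70, HSP110 and HSP90 proteins, which are controlled by the unfolded protein response, the pathway in which XBP1 is a transcription factor.

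Promoter windows of RefSeq on build GRCm38.p6, each 250 bases before and 50 bases after a transcription start, were read for 7 of the 10 genes. The windows below are shown because each holds a stress element, so their contrast between cytosolic and ER genes follows from that choice. No window was found for *Hyou1*, which encodes the ER HSP110. Capitals mark the heat shock element in both 2-unit forms, TTCNNGAA and GAANNTTC, in *Hsph1*, *Hspa1a* and *Hspa1b*, and the ER stress element, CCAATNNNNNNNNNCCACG, in *Hspa5* and *Hsp90b1*, which encode the ER HSP70 (BiP) and the ER HSP90 (GRP94). All motifs were searched on both strands, and each sequence runs 5′ to 3′ along the strand of its gene.
Hsph1, chr5:149636287-149636586, minus strand: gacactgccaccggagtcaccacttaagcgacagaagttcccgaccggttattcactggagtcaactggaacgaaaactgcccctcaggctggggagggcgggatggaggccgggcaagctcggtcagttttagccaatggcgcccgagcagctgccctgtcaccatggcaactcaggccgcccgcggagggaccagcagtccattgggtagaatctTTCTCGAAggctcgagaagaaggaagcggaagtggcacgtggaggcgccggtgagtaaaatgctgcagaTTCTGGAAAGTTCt
Hspa1a, chr17:34972107-34972406, minus strand: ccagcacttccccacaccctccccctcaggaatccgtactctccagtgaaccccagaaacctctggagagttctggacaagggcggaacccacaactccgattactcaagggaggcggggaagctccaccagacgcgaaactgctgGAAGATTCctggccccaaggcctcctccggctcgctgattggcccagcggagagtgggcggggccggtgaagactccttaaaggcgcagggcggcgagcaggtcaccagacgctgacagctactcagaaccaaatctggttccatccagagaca
Hspa1b, chr17:34959189-34959488, minus strand: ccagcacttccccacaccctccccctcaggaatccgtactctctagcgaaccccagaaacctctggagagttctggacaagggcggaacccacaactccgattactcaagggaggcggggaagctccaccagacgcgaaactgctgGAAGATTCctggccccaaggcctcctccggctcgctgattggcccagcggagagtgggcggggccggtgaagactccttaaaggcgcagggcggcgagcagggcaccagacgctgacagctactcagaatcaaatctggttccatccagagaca
Hspa5, chr2:34771840-34772139, plus strand: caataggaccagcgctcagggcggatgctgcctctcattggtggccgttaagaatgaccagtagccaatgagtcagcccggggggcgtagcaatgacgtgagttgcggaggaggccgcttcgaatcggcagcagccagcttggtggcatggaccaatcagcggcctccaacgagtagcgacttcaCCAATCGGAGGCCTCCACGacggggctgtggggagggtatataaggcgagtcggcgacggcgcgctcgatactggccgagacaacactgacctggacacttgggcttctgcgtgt
Hsp90b1, chr10:86705395-86705694, minus strand: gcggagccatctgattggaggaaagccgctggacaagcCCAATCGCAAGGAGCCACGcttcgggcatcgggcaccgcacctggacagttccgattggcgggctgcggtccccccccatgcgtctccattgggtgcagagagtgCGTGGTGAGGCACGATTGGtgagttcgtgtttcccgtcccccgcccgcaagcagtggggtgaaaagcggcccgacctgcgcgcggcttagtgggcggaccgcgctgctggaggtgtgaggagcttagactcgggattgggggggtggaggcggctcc

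Either 2-unit heat shock element stood in 15.1% of the 32851 promoter windows of the whole table, TTCNNGAA in 8.52% and GAANNTTC in 7.86%. *Hsph1* held both forms. One TTCTCGAA began 33 bases before its start site, and a TTCTGGAA overlapped a GAAAGTTC after the start. These overlapping matches form the 3-unit element GAANNTTCNNGAA read on the other strand, which stood in 0.603% of all windows. *Hspa1a* and *Hspa1b* each held 1 GAAGATTC, 104 bases before the start, and their windows differed at 4 of 300 bases (98.7% the same). No form of the element was found in these windows of *Hspa1l*, *Hspa2*, *Hspa4* or *Hspa4l*. The ER stress element stood in 0.119% of windows, once in *Hspa5* and at 2 positions in *Hsp90b1*, and in none of the 7 cytosolic genes. The core of a further XBP1-linked motif, TGACGTGG, stood in 0.676% of windows and in none of those printed or of the other cytosolic genes. Only these exact letters were searched. TGACGTGA, which differs in the last letter, stands in the windows of *Hspa5* and *Hspa1l* and was not counted over all windows. A match describes letters in a window and is not a measured binding site.

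The 4 arrays had been brought to a common scale, with a median signal between 43.79 and 43.84 and pairwise Pearson correlations of 0.956 to 0.974 over all probe sets on the log2 scale. The brightest *Xbp1* probe set read 8183 in the wild type, 7877 in the XBP1 null, 11403 in the Matn3 mutant and 9548 in the double mutant. It therefore showed no loss on either array labelled as null, and the deletion of 1 exon need not be seen by a probe set outside it, so the label of these arrays is not checked by this signal. The pools also differed in the makeup of their animals. The Y-linked gene *Eif2s3y* read 484 in the wild type, 665 in the XBP1 null, 0.032 in the Matn3 mutant and 855 in the double mutant, so the Matn3 mutant pool alone lacked this male transcript. Genotype cannot be told apart from this difference, from the litter or from the handling of a pool. In bulk RNA, fewer cells of a type and less RNA per cell cannot be told apart either.

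**Figure D1:**
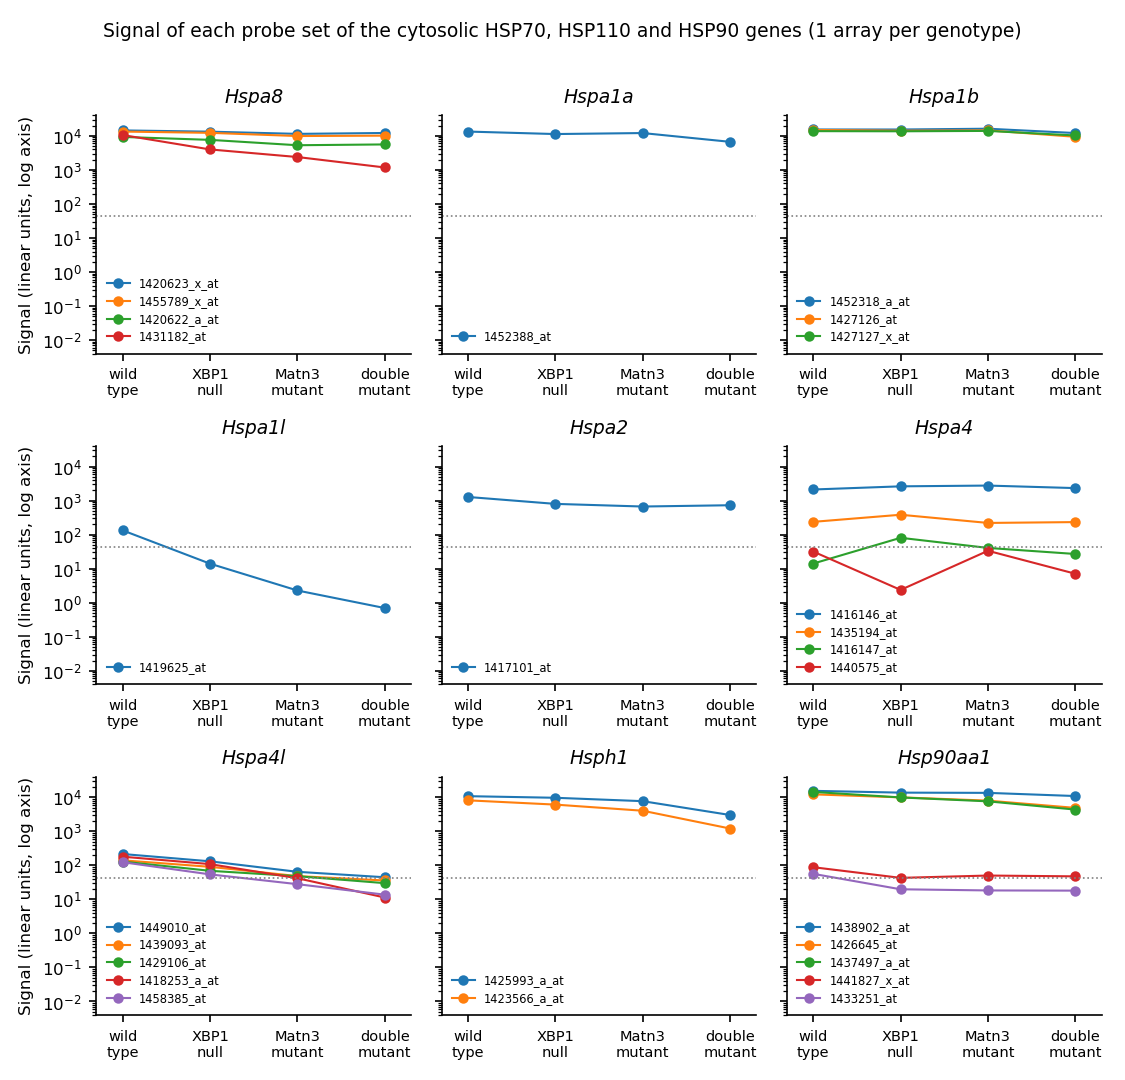
Signal of all 26 probe sets of the 9 measured genes on the 4 arrays (vertical axis, linear signal on a log scale; horizontal axis, genotype; 1 point per array, lines join the points of a probe set and have no error bars because there is 1 array per genotype). The dotted line is the median of all probe sets. *Hspa4l*, *Hsph1* and the brighter *Hsp90aa1* probe sets step down from wild type to double mutant, the *Hspa1a* and *Hspa1b* probe sets are lowest on the double mutant array, and the *Hspa4* probe sets share no order.

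*Hspa8* encodes HSC70, the constitutive HSP70 that also uncoats clathrin vesicles, and lies on chromosome 9 at 40801276-40805202. Its 4 probe sets did not give 1 answer. The brightest, 1420623_x_at, read 14493 in the wild type, 13303 in the XBP1 null, 11457 in the Matn3 mutant and 12175 in the double mutant. The Matn3 mutant array was thus 1.27-fold below the wild type, and loss of XBP1 made little difference, 1.09-fold lower on intact *Matn3* and 1.06-fold higher on mutant *Matn3*. The probe set 1455789_x_at had the same shape, with 13407, 12287, 9902 and 10161 in that order of genotypes. So had 1420622_a_at, with 9309, 7644, 5314 and 5610, and here the Matn3 mutant was 1.75-fold below the wild type.

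The 4th *Hspa8* probe set, 1431182_at, behaved differently. It read 10595 in the wild type, 3999 in the XBP1 null, 2393 in the Matn3 mutant and 1181 in the double mutant. Each mutation alone went with a lower signal, 2.65-fold for the XBP1 null and 4.43-fold for the Matn3 mutant, and the double mutant was 8.97-fold below the wild type. The other 3 probe sets were 1.19-fold to 1.66-fold lower in that last comparison, so the SD among the 4 log2 differences was 1.37. The large difference was thus seen in 1 probe set only. Which transcript or transcript end each probe set reads was not analysed here, so these signals do not tell which size stands for *Hspa8*.

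*Hspa1a* and *Hspa1b* are neighbouring, near-identical genes for the heat-inducible HSP70 on chromosome 17, at 34969359-34972156 and 34956429-34959238, and a probe set named for one may bind transcripts of the other. Their signals stood apart on the double mutant array alone. The *Hspa1a* probe set read 13399 in the wild type, 11324 in the XBP1 null, 12117 in the Matn3 mutant and 6692 in the double mutant. The double mutant was 2.0-fold below the wild type, 1.69-fold below the XBP1 null and 1.81-fold below the Matn3 mutant, while the other 3 arrays lay within 1.18-fold of the wild type.

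The *Hspa1b* probe set 1427126_at repeated this, with 14942 in the wild type, 14227 in the XBP1 null, 14545 in the Matn3 mutant and 9399 in the double mutant. The brightest, 1452318_a_at, read 15413, 15397, 16244 and 12128, and 1427127_x_at read 13790, 13652, 14008 and 10289. Across the 3 *Hspa1b* probe sets, the double mutant was 1.34-fold to 1.55-fold below the Matn3 mutant, and the SD of these log2 differences was 0.11. These signals, like those of the brightest *Hspa8*, *Hsp90aa1* and *Hspa5* probe sets, lay near the top of the range of each array, whose highest value was between 18520 and 24498. Whether such bright probe sets still respond in proportion was not tested, and the counts by gene and the ratios to the ER genes given below rest on them.

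*Hspa1l*, the third HSP70 gene of this cluster on chromosome 17 (34972703-34979228), is known as a testis-enriched gene that is not heat-inducible. Its only probe set read 134 in the wild type, 14.04 in the XBP1 null, 2.29 in the Matn3 mutant and 0.697 in the double mutant. These are dim signals, the last 2 below the 25th percentile of their arrays (5.81 and 5.54). With the floor of 1, the double mutant was at least 134-fold below the wild type. The XBP1 null was 9.53-fold and the Matn3 mutant 58.5-fold below the wild type. With the floor raised to the 25th percentile, the log2 difference between Matn3 mutant and wild type was -4.60 and that between double mutant and Matn3 mutant was 0.

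*Hspa2* encodes an HSP70 best known from spermatogenesis and present in other tissues too, and lies on chromosome 12 at 76403812-76406938. Its probe set read 1281 in the wild type, 802 in the XBP1 null, 671 in the Matn3 mutant and 732 in the double mutant. All 3 mutant arrays were lower than the wild type, by 1.60-fold, 1.91-fold and 1.75-fold in that order. The second mutation brought no further drop, since the double mutant was 1.10-fold below the XBP1 null and 1.09-fold above the Matn3 mutant.

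Of the HSP110 genes, *Hsph1* and *Hspa4l* shared a stepwise pattern that *Hspa4* did not have. *Hsph1* encodes HSP105, the heat-inducible HSP110, and lies on chromosome 5 at 149616843-149636498, with the promoter shown above. Its brightest probe set, 1425993_a_at, read 10788 in the wild type, 9677 in the XBP1 null, 7695 in the Matn3 mutant and 3016 in the double mutant. The second, 1423566_a_at, read 8139, 6096, 4028 and 1208. Both placed the 4 arrays in the same order, with the double mutant well apart from the rest.

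The *Matn3* mutation went with a 1.40-fold lower *Hsph1* signal on intact *Xbp1* and a 3.21-fold lower signal on the XBP1 null background, by the brightest probe set. By the second it was 2.02-fold and 5.05-fold. On the log2 scale, the double mutant lay 1.19 and 1.32 below what the 2 single differences add up to, as the departures of -1.19 and -1.32 show. No replicate measures the error of such a departure, and it was not tested.

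*Hspa4l* encodes APG-1, an HSP110 protein named for its expression in germ cells, and lies on chromosome 3 at 40744500-40796103. All 5 of its probe sets ranked the arrays from high to low as wild type, then XBP1 null, then Matn3 mutant, then double mutant. The brightest, 1449010_at, read 215 in the wild type, 131 in the XBP1 null, 64.6 in the Matn3 mutant and 44.7 in the double mutant. Next, 1439093_at read 140, 90.6, 48.3 and 35.9. The lowest value of the gene was 11.3, on the double mutant array with 1418253_a_at, which read 180, 109 and 41.8 on the others.

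Over the 5 *Hspa4l* probe sets, the Matn3 mutant was 2.69-fold to 4.42-fold below the wild type, and the XBP1 null was 1.55-fold to 2.28-fold below it. The double mutant was 3.91-fold to 15.8-fold below the wild type. The SD among probe sets was 0.32 for the log2 difference between Matn3 mutant and wild type, whose median was -1.74. For 4 probe sets the double mutant was close to the sum of the single differences, with departures of 0.16 to 0.22 on the log2 scale, and for 1418253_a_at the departure was -1.16.

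*Hspa4* encodes APG-2, the constitutive HSP110, and lies on chromosome 11 at 53259814-53300479. It did not follow the other 2 genes. The brightest probe set, 1416146_at, read 2123 in the wild type, 2628 in the XBP1 null, 2768 in the Matn3 mutant and 2333 in the double mutant, all within 1.30-fold of the wild type. The next, 1435194_at, read 238, 384, 221 and 234, and was high on the XBP1 null array only. The dim probe sets went opposite ways, with 14.1, 80.8, 40.7 and 27.0 for 1416147_at and 31.9, 2.38, 33.6 and 7.10 for 1440575_at. The SD among the 4 log2 differences between XBP1 null and wild type was 2.64, so the array gave no level for *Hspa4* that its probe sets share beyond the near-constant brightest one.

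*Hsp90aa1* encodes HSP90 alpha, the inducible cytosolic HSP90, and lies on chromosome 12 at 110691036-110696395. Its brighter probe sets shared 1 order of arrays and differed in size. The brightest, 1438902_a_at, read 15468 in the wild type, 13706 in the XBP1 null, 13484 in the Matn3 mutant and 10885 in the double mutant. The probe set 1437497_a_at read 14387, 9899, 7602 and 4351, and 1426645_at read 12204, 9951, 7974 and 4882. The double mutant was below the wild type by 1.42-fold in the first, 3.31-fold in the second and 2.50-fold in the third.

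The dim *Hsp90aa1* probe sets were also brightest in the wild type and differed little among the mutants. The probe set 1441827_x_at read 88.2, 42.9, 50.1 and 47.5, and 1433251_at read 56.3, 19.8, 18.3 and 18.1. In both, the 3 mutant arrays lay close together, unlike the steps of the brighter probe sets.

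Each gene was next taken at its brightest probe set, and a difference over 1.5-fold was counted. Between Matn3 mutant and wild type, 3 of 9 genes were lower (*Hspa1l*, *Hspa2* and *Hspa4l*) against 19.3% of all genes, and 0 were higher against 21.2%. Over all probe sets, 14 of 26 were lower against 20.8% of the array, and 1 was higher against 22.0%. Between XBP1 null and wild type, the same 3 genes were lower against 11.5% of all genes, and 0 were higher against 23.3%. There, 11 of 26 probe sets were lower against 17.5%, and 2 were higher against 21.6%.

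Between double mutant and XBP1 null, 4 of 9 genes were lower (*Hspa1a*, *Hspa1l*, *Hspa4l* and *Hsph1*) against 16.9%, and 0 were higher against 16.6%. Of the probe sets, 15 of 26 were lower against 19.5%, and 1 was higher against 18.1%. Between double mutant and Matn3 mutant, 3 of 9 genes were lower (*Hspa1a*, *Hspa1l* and *Hsph1*) against 9.03%, and 0 were higher against 17.4%. The *Hspa1l* signals compared here were both under the 25th percentile, and with the floor raised to that percentile its difference was 0 and the count 2. Of the probe sets, 13 of 26 were lower against 15.4%, and 0 were higher against 15.8%. The comparisons share arrays and are not independent of each other. Several probe sets read the same gene, so their counts are larger than the number of separate measurements.

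The median log2 difference of the 9 genes between Matn3 mutant and wild type was -0.34, beside 0.00 for all genes. Between XBP1 null and wild type it was -0.17, beside 0.09. Between double mutant and XBP1 null it was -0.34, beside 0.00, and between double mutant and Matn3 mutant -0.42, beside 0.15. Every median of the family lay below that of all genes, and in *Hspa8*, *Hsph1* and *Hsp90aa1* the brightest probe set was the one with the smallest difference between Matn3 mutant and wild type. With all 26 probe sets, the medians in the same order were -0.71, -0.36, -0.74 and -0.56.

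**Figure D2:**
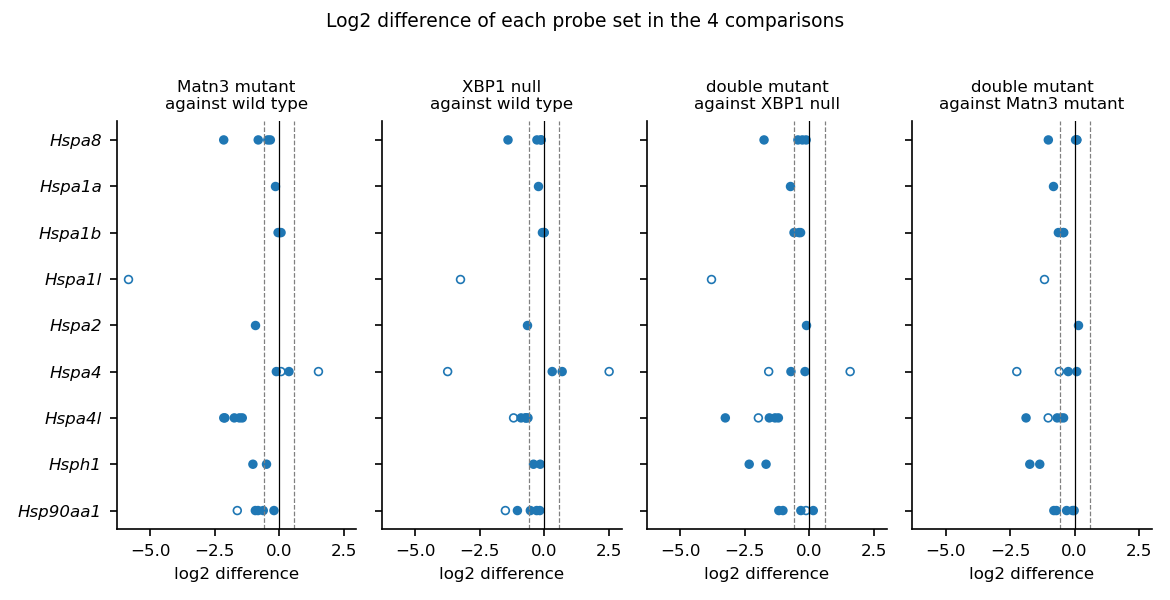
Log2 difference of each of the 26 probe sets in the 4 comparisons between 2 arrays, by gene, with no error bars because there is 1 array per genotype (filled points, mean intensity at or above the median of the array; open points, below it; dashed lines, 1.5-fold). Most points lie below 0, those of *Hspa4* lie on both sides, and the *Hsph1* points lie further below 0 in the comparisons of the double mutant than in those of either single mutant.

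Of the 26 probe sets, 13 had this stepwise order, with the wild type highest, the XBP1 null next, then the Matn3 mutant and the double mutant lowest, against 4.99% of all probe sets. These were all 5 of *Hspa4l*, both of *Hsph1*, 4 of the 5 of *Hsp90aa1*, that of *Hspa1l* and 1431182_at of *Hspa8*. In some of the 13 the order rests on little. On the brightest *Hsp90aa1* probe set, 1438902_a_at, the XBP1 null read 13706 and the Matn3 mutant 13484. The *Hspa1l* signals of both arrays with mutant *Matn3* lay under the 25th percentile, where values have no order, and the mutant arrays of *Hsp90aa1* 1433251_at lay within 1.10-fold of each other. Both arrays with mutant *Matn3* lay below both arrays with intact *Matn3* in 18 of 26 probe sets, against 22.3%. Both XBP1 null arrays lay below both XBP1 intact arrays in 6 of 26, against 11.4%. This order was noticed in these data, and its counts are a description.

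An additive model was fitted over the 4 arrays, with 1 effect for the *Matn3* mutation and 1 for loss of XBP1. It keeps both factors and still leaves a residual, which a model with their interaction would not. Its residual rests on 1 degree of freedom, and the 2 effects are taken to add up, from which *Hsph1* departed as given above. With limma and Benjamini-Hochberg adjustment over all 45037 probe sets, no probe set of the array was called for either effect (0% for the *Matn3* mutation and 0% for loss of XBP1), and the smallest adjusted p values were 0.6354 and 0.8188. Before adjustment, 3381 probe sets had a p under 0.05 for the *Matn3* mutation and 2052 for loss of XBP1.

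For the *Matn3* mutation, 9 of the 26 family probe sets were lower with an unadjusted p under 0.05, against 4.03% of all probe sets lower at that level. These were the 5 of *Hspa4l*, 2 of *Hsp90aa1*, 1431182_at of *Hspa8* and that of *Hspa1l*. For loss of XBP1 there were 3 of 26, against 2.19%, namely 1431182_at of *Hspa8*, 1437497_a_at of *Hsp90aa1* and 1440575_at of *Hspa4*. The *Hspa4* probe set read 2.38 on the XBP1 null array, under the 25th percentile of that array (5.64). No family probe set was higher at that level for either effect. With the floor raised to the 25th percentile, 6 were lower for the *Matn3* mutation (2.98% of all probe sets) and 2 for loss of XBP1 (1.97%). Without an intensity trend these counts were 8 (4.64%) and 5 (3.45%). After quantile normalization they were 10 (3.62%) and 3 (2.72%). The estimated *Matn3* effect on *Hspa4l* 1449010_at was a log2 difference of -1.65 with an SE of 0.20, and that on *Hsph1* 1425993_a_at was -1.08 with an SE of 0.43.

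When the fit was limited to the 22519 probe sets of median intensity or brighter, 13 probe sets of the array were called for the *Matn3* mutation. Of these, 9 were lower (0.0400% of those tested), and 2 were probe sets of this family. They were *Hspa8* 1431182_at, with a log2 effect of -1.95 (SE 0.19, limma adjusted p 0.0248), and *Hsp90aa1* 1437497_a_at, with -1.05 (SE 0.13, limma adjusted p 0.0489). For loss of XBP1, limma again called 0 probe sets, with 1435 at an unadjusted p under 0.05. The called *Hspa8* probe set stood apart from the others of its gene, whose effects in this fit were -0.23 to -0.63. For *Hsp90aa1*, 1426645_at was nearer to the called probe set, with -0.82, while 1438902_a_at had -0.27 and 1441827_x_at -0.33. The p values rest on departures of 4 arrays from additivity, which limma pools across the probe sets fitted, and not on variation between animals. That pooling changed with the filter on intensity.

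The ER counterparts went the other way with the *Matn3* mutation. *Hspa5*, the ER HSP70, read 13371 in the wild type, 14150 in the XBP1 null, 20030 in the Matn3 mutant and 19811 in the double mutant. *Hyou1*, the ER HSP110, read 273, 257, 1022 and 615. *Hsp90b1*, the ER HSP90, read 8027, 8555, 14935 and 15659. For all 3, both arrays with mutant *Matn3* lay above both arrays with intact *Matn3*.

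The ratio of each ER gene to its cytosolic counterpart was then compared between arrays, taking the brightest probe set of each. Between wild type and Matn3 mutant, the ratio of *Hspa5* to *Hspa8* was 1.90-fold higher in the mutant, that of *Hyou1* to *Hsph1* 5.25-fold and that of *Hsp90b1* to *Hsp90aa1* 2.13-fold. Between XBP1 null and double mutant, the same ratios were higher by 1.53-fold, 7.68-fold and 2.30-fold. Loss of XBP1 on intact *Matn3* went with smaller changes of 1.15-fold, 1.05-fold and 1.20-fold. On mutant *Matn3*, loss of XBP1 went with a 1.07-fold lower ratio of *Hspa5* to *Hspa8*. The ratio of *Hyou1* to *Hsph1* was there 1.54-fold higher and that of *Hsp90b1* to *Hsp90aa1* 1.30-fold higher. In that comparison *Hyou1* was 1.66-fold lower and *Hsph1* 2.55-fold lower. A ratio within an array shows unequal change and does not tell which of the genes moved.

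**Figure D3:**
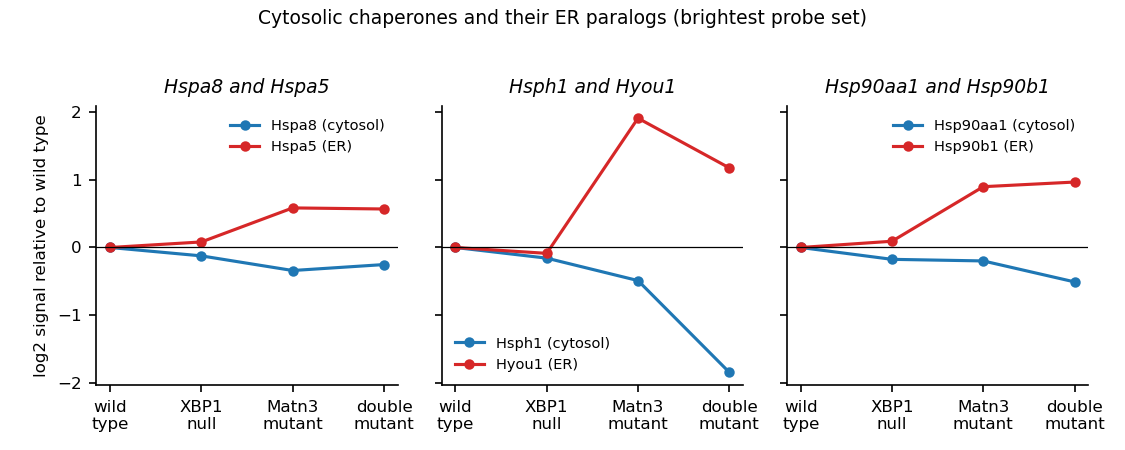
Log2 difference from the wild type array of 3 ER chaperones and their cytosolic counterparts on the 3 mutant arrays (brightest probe set of each gene, 1 array per genotype, no error bars). On the arrays with mutant *Matn3* the ER genes lie above 0 and the cytosolic genes below it, with the widest gap between *Hyou1* and *Hsph1*.

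The remaining paralogs showed no shared direction. Mitochondrial *Hspa9* read 3226 in the wild type, 5226 in the XBP1 null, 5734 in the Matn3 mutant and 5387 in the double mutant, so all mutant arrays were higher. *Trap1*, the mitochondrial HSP90, was level at 403, 404, 361 and 375, as was *Hspa14*, a ribosome-associated HSP70, at 1321, 1398, 1377 and 1415. *Hspa13*, a microsomal HSP70, read 631, 1099, 954 and 888, and the atypical *Hspa12a* and *Hspa12b* were dim, with 17.3, 73.3, 35.6 and 32.1 and with 25.02, 26.7, 2.53 and 7.88. Of the 9 listed paralogs, 5 were over 1.5-fold higher and 1 lower between Matn3 mutant and wild type (21.2% and 19.3% of all genes). Those higher were *Hyou1*, *Hsp90b1*, *Hspa9*, *Hspa12a* and *Hspa13*, and that lower was *Hspa12b*, while *Hspa5* fell just short. *Hspa12a*, *Hspa12b* and *Hspa14* are not assigned to another compartment here, so the count is not one of paralogs outside the cytosol.

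Cochaperones of HSP70 were read from a list of 18 genes, all with a probe set. Between Matn3 mutant and wild type 4 were over 1.5-fold lower and 0 higher, beside 19.3% and 21.2% of all genes, with a median log2 difference of -0.34. The count lower is near the share of all genes. The J-domain gene *Dnaja4* read 5054 in the wild type, 2306 in the XBP1 null, 1228 in the Matn3 mutant and 545 in the double mutant. This is the order seen for *Hspa4l* and *Hsph1*, and *Dnaja1*, *Dnajb1*, *Dnajb4* and *Bag3* of this list had it too. *Dnaja1*, a J-domain protein of the same type, read 10067, 7643, 5091 and 3532. The nucleotide exchange factor gene *Bag3* read 4777, 3312, 2412 and 2258, and *Stub1*, which encodes the ubiquitin ligase CHIP, read 3453, 2734, 1668 and 2772. Between XBP1 null and wild type 1 of the 18 was over 1.5-fold lower and 1 higher, beside 11.5% and 23.3% of all genes, with a median of -0.01.

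Cochaperones of HSP90 had probe sets for 15 of 17 listed genes. Of these, 7 were over 1.5-fold lower and 1 higher between Matn3 mutant and wild type (19.3% and 21.2% of all genes), with a median of -0.42. Between XBP1 null and wild type, 1 was lower and 0 higher (11.5% and 23.3%), with a median of -0.02. The ATPase activators *Ahsa2* and *Ahsa1* read 822, 393, 358 and 371 and 1554, 1343, 935 and 1027. The immunophilin gene *Fkbp4* read 1347, 957, 615 and 588, and *Aarsd1*, listed for its p23-like domain, read 298, 307, 160 and 272. Of this list, *Fkbp4* and *Chordc1* had the stepwise order. Between double mutant and Matn3 mutant, 0 of the 15 were lower and 2 higher (9.03% and 17.4% of all genes), with a median of 0.13, whereas *Hsp90aa1* was 1.24-fold lower there at its brightest probe set.

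Of the heat shock factors and their binding protein, 3 of 4 had a probe set, and *Hsf1* had none. *Hsbp1*, which encodes a negative regulator of HSF1, read 3706 in the wild type, 3396 in the XBP1 null, 2150 in the Matn3 mutant and 2963 in the double mutant. *Hsf2* read 78.2, 71.3, 96.1 and 63.0, and *Hsf4* was dim at 27.2, 11.1, 8.13 and 12.4. The factor that drives the inducible family members is thus not measured here at the RNA level.

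Other genes of the heat shock response had probe sets for 10 of 12 listed. Between Matn3 mutant and wild type 5 were over 1.5-fold lower and 0 higher (19.3% and 21.2% of all genes), with a median of -0.52. Between double mutant and XBP1 null 4 were lower and 0 higher (16.9% and 16.6%), with a median of -0.32. The small heat shock gene *Cryab* read 2955, 2060, 1289 and 667, in the stepwise order, and *Hspb8*, which acts with *Bag3*, read 843, 786, 455 and 560. The mitochondrial chaperonin gene *Hspd1* read 10704, 8413, 6522 and 5118, and *Cacybp*, an HSP90-linked adaptor, read 2958, 2270, 1792 and 1492. *Hspd1*, *Cacybp* and *Hspe1* also had the stepwise order.

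**Figure D4:**
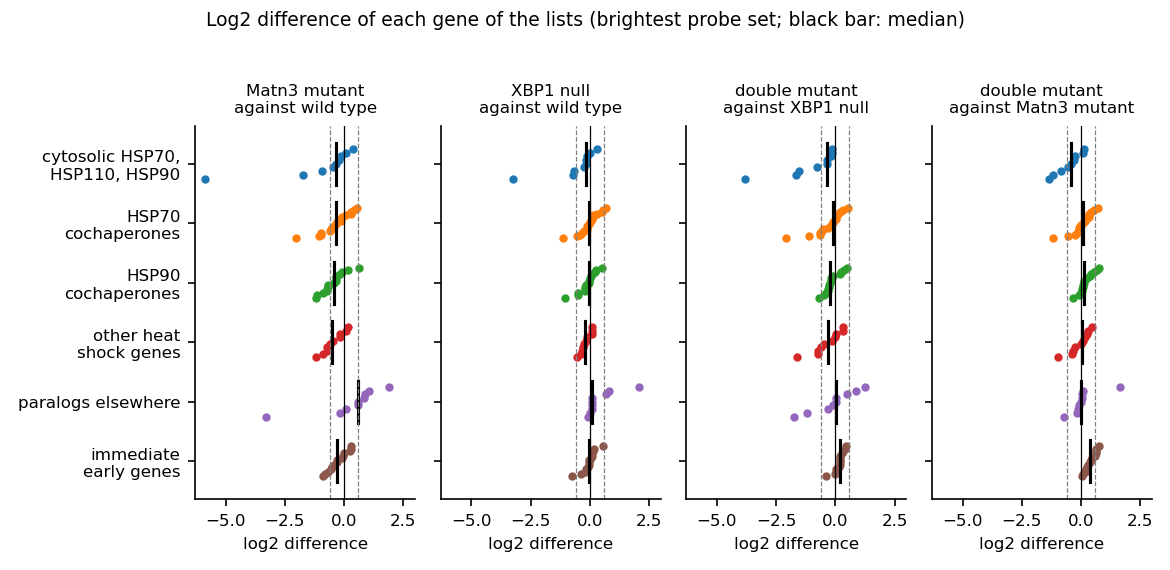
Log2 difference in each of the 4 comparisons (panels) for the genes of each list (points, brightest probe set of each gene; the vertical offset within a list only separates the points; black bars mark medians and dashed lines 1.5-fold). The cytosolic family, both cochaperone lists and the other heat shock genes have medians below 0 between Matn3 mutant and wild type. The 9 listed paralogs (paralogs elsewhere), not all of them outside the cytosol, have a median of 0.60.

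The genes closest to *Hspa8* and *Hsp90aa1* in shape over the 4 arrays, among 10974 at or above median intensity, were found by the root mean square distance between centred log2 profiles. For *Hspa8* they were *Coq2*, *Adprm*, *Cenpi*, *Atpaf2* and *Iqce*, at distances of 0.0064 to 0.0171. For *Hsp90aa1* they were *Zcchc2*, *Nsl1*, *2900009J06Rik*, *Fpgs* and *Msantd2*, at 0.0178 to 0.048. With 4 arrays such close matches say little, and none of these 10 genes is a chaperone of the lists above.

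Chondrocyte markers were bright on every array. The 12 chondrocyte markers summed to 119000 in the wild type, 127000 in the XBP1 null, 129000 in the Matn3 mutant and 136000 in the double mutant, with none under the 25th percentile of its array. Gene by gene, 1 of the 12 was over 1.5-fold lower and 0 higher between Matn3 mutant and wild type (19.3% and 21.2% of all genes). This was *Matn1*, at 2622, 2334, 1494 and 1533 in the same order of arrays. Markers of other cells also moved between arrays. The 8 endothelial markers summed to 84.5, 4300, 536 and 874, with 1, 0, 1 and 1 under the 25th percentile, and 10 perichondrium and fibroblast markers to 55000, 75600, 49100 and 65800, so both were highest on the XBP1 null array.

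The 6 measured osteoblast markers summed to 5020, 7890, 2660 and 5300, the 12 muscle markers to 3270, 2720, 2070 and 2920, and the 8 leukocyte markers to 275, 345, 343 and 363. The 3 measured erythroid markers summed to 119, 197, 15.4 and 16.0, with the globin gene *Hba-a1* at 0.635 to 1.18. The osteoblast sum was mostly *Col1a1*, at 4591, 7001, 2398 and 4970. The muscle sum was mostly *Tnnt3*, at 2780, 1906, 1829 and 2406, and gene by gene 9 of the 12 muscle markers were over 1.5-fold higher and 0 lower between XBP1 null and wild type, with a median log2 difference of 1.04. The part of these cells in the chaperone differences was not tested.

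Immediate early genes, which respond within minutes to handling and serum, were read beside the heat shock genes because both can answer to dissociation of tissue. Their 14 signals summed to 131000 in the wild type, 127000 in the XBP1 null, 114000 in the Matn3 mutant and 145000 in the double mutant. Between Matn3 mutant and wild type, 0 were over 1.5-fold higher (21.2% of all genes) and 3 lower (19.3%), with a median log2 difference of -0.30, beside -0.34 for the cytosolic chaperones. Between double mutant and Matn3 mutant, 5 were higher (17.4%) and 0 lower (9.03%), with a median of 0.40, beside -0.42 for the chaperones. Between double mutant and XBP1 null, the median was 0.21 for the immediate early genes and -0.34 for the chaperones. Between XBP1 null and wild type, it was -0.04 and -0.17 in that order. *Junb* read 4839, 2894, 2597 and 4006, and *Fosb* read 3063, 2957, 1754 and 3003. *Dusp1* read 11949, 11374, 7414 and 11660, and *Zfp36* read 11004, 8536, 7388 and 11337. These 4 were named for the largest differences between Matn3 mutant and wild type, and all 4 were lowest on the Matn3 mutant array. Of the other genes of the list, *Fos*, *Egr1* and *Myc* were higher on that array than in the wild type, and the rest were lower. The part of tissue handling in these or in the chaperone differences was not tested.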

How the data were processed

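Gene expression was measured on 4 Affymetrix Mouse430_2 arrays, 1 per genotype. The deposited values were linear intensity per probe set, used as given. How the authors summarized and normalized these intensities is not given in any source used here. Their quality control used Microarray Suite. Common scaling of the arrays removes any shift shared by all genes. The authors' probe-level selection needs errors that these values do not hold and was not repeated. Here, signals were raised to at least 1 and taken to log2. Genes were named from the platform annotation table (34945 probe sets with 1 gene, 932 with several, 9160 with none), and none of the 932 named a family gene. Each gene was read at its brightest probe set, by mean log2. An additive model was fitted with limma 3.58.1 in R 4.3.3 with an intensity trend, tested on simulated data. Promoters came from RefSeq, where 7 of 10 genes matched. Named genes were all family probe sets, all paralogs, up to 4 genes per list that differed most between wild type and Matn3 mutant, and the 5 genes closest to each named profile. The members and lists were chosen with earlier results of these data known. Alternatives were another normalization, floor, fold, probe set rule, intensity filter and variance model. The number of arrays limits the precision.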

Additional observations from a re-analysis of the deposited data

Results flagged for a closer look

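Several differences changed sign between the genetic backgrounds at the brightest probe set of a gene, and with 1 array per genotype none of these differences between backgrounds was tested. With the *Matn3* mutation, *Hspa1b* had a log2 difference of 0.0757 on intact *Xbp1* and -0.3444 on the XBP1 null background. The first of these was -0.1508 after quantile normalization and -0.0389 with the median of the probe sets, so this change of sign is not kept there. *Hspa4* had 0.3828 and -0.1719 in the same comparison. With loss of XBP1, *Hspa8* had a log2 difference of -0.1236 on intact *Matn3* and 0.0877 on mutant *Matn3*. *Hspa2* had -0.6757 and 0.1253, and *Hspa4* had 0.3081 and -0.2466. Of these values, -0.6757 for *Hspa2* is the one over 1.5-fold.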

How the results depend on the processing

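The choice of probe set mattered most. With the median signal of a gene's probe sets taken on each array, genes over 1.5-fold lower went from 3 to 6 between Matn3 mutant and wild type and from 3 to 5 between double mutant and Matn3 mutant, and 1 gene was higher between XBP1 null and wild type. Counting probe sets gave 14, 11, 15 and 13 lower and 1, 2, 1 and 0 higher in the 4 comparisons. The median log2 differences under the median of probe sets were -0.72 between Matn3 mutant and wild type, -0.30 between XBP1 null and wild type, -1.15 between double mutant and XBP1 null and -0.68 between double mutant and Matn3 mutant. With a fold of 2, 1 gene was lower between XBP1 null and wild type. Quantile normalization gave a median of -0.33 there, and turned the effect of XBP1 loss on *Hspa4* 1416146_at from 0.03 to -0.13. It shifted the median of all genes by -0.09 between XBP1 null and wild type. The fit at or above median intensity called 13 probe sets for the *Matn3* mutation in place of 0, and the effects of single family probe sets in that fit were added after the data were seen. Of the gene differences, 174 moved by less than 1.5-fold and 6 by more, and of the additive effects 195 kept their call, 2 became called and 1 turned. The cause was not tested. No paired analysis was possible because each genotype has 1 array. Values near the floor, as for *Hspa1l*, have no order.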
